A study of Mus musculus with 12 samples.

Results

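Integrins are the cell-surface receptors that tie a cell to the matrix under it, and laminins are the main ligands that epithelial integrins find there. The genes described here are those with a mouse symbol of the form Itga, Itgb1 to Itgb8, or Lama, Lamb and Lamc with a number. The array measured 31 of them, 23 integrin and 8 laminin genes, out of 17097 genes that had a symbol to themselves. By role, 8 encode integrin chains of epithelia, 7 encode integrin chains of leukocytes, 8 encode other integrin chains, 2 encode chains of laminin-332 and 6 encode other laminin chains. Itgb8, Itgad, Itga11, Lama4 and Lama5 belong to the same families and were not analysed here.

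The study asked how adenoma cells that express the RNA-binding protein gene Mex3a compare with those that express Lgr5, an R-spondin receptor gene known from crypt stem cells. Adenoma cells of the colon were sorted by both genes into double-positive cells (Mex3a+ Lgr5+), cells with Mex3a but not Lgr5 (Mex3a+ Lgr5-), cells with Lgr5 but not Mex3a (Mex3a- Lgr5+) and double-negative cells (Mex3a- Lgr5-), and each of these 4 populations was measured on 1 Affymetrix array in each of 3 mice, named MKL347, MKL358 and MKL367. Each replicate was RNA of pooled adenomas from 1 mouse, so the 3 arrays of a population are 3 animals. All 3 mice carry the genotype written ki/+ in the sample titles, which do not say what was knocked in, and no mouse of another genotype or normal tissue entered the comparisons. The pools held 500 sorted cells for MKL358 and 2000 cells for MKL347 and MKL367, so cell number and mouse cannot be told apart. The labels give no age or sex and do not say how the adenomas arose.

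An integrin is a pair of an alpha and a beta chain, and the pair decides what it binds. In gut epithelium alpha2beta1 binds collagen, alpha3beta1 and alpha6beta4 bind laminins, and alphavbeta6 binds fibronectin and releases active TGF-beta from its latent form. Alpha6beta4 anchors basal keratin filaments to laminin-332, a trimer that holds the products of Lama3 and Lamb3, in the hemidesmosome. Leukocytes carry a set of their own, built on the beta2 and beta7 chains.

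Signals are log2 values, and levels are compared only within a gene, since different probe sets respond differently. The median array signal lay between 4.86 and 4.92. Of the 31 genes, 25 exceeded the filter on dim genes (a log2 signal of 4.40 on at least 3 arrays), 22 of them on all 12 arrays, and 12595 genes passed in all. The other 6 (Itga1, Itga4, Itga5, Itga8, Itga10 and Itgam) lay between 2.91 and 4.32 on every array and were not tested. Epithelial markers were bright on all arrays: Epcam lay between 11.44 and 11.77. Ptprc, which encodes the leukocyte surface protein CD45, did not exceed the filter level on any array, with signals between 2.91 and 4.12. Of the 10 pan-leukocyte markers that include Ptprc, however, 7 passed the filter. Coro1a, Laptm5, Cd52, Lcp2, Rac2 and Arhgdib exceeded its level on all 12 arrays. The arrays still differed in markers of other cells, and those values stand beside the genes they touch.

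The Mex3a comparison set 6 Mex3a+ arrays against 6 Mex3a- arrays, averaged over both Lgr5 states. Epithelial integrin genes supplied 5 of the 8 genes that passed. Itga2, Itgb6, Itga3, Itgav and Itgb4 fell in Mex3a+ cells, and so did the laminin chain gene Lama3, while the laminin chain gene Lamb2 and the integrin gene Itga9 rose. By limma with an adjusted p under 0.05 over all genes tested, 8 of the 25 genes passed (32.0%), 2 higher and 6 lower, beside 27.2% of all 12595 genes (9.91% higher and 17.3% lower). The share of the 25 genes was thus near that of all genes, and their median difference was 0.00 on the log2 scale against -0.01 for all genes. With the mouse as a block 13 of 25 passed (52.0%), 5 higher and 8 lower, beside 41.2% of all genes (15.9% higher and 25.3% lower). The Mex3a+ and Mex3a- arrays did not overlap for 4 of the 25, Itga2, Itgb6, Itga3 and Itgb4, all lower, beside 13.3% of all genes (9.02% lower). Without mouse MKL347 only 3 genes passed, Itga2, Itgb6 and Lamb2, and the share of all genes dropped to 8.21%. After a further quantile normalization, 1451 of the 3121 genes called in all were higher, against 1248 of 3422 as reported, and of the integrin and laminin genes 2 were higher and 5 lower.

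**Figure D1:**
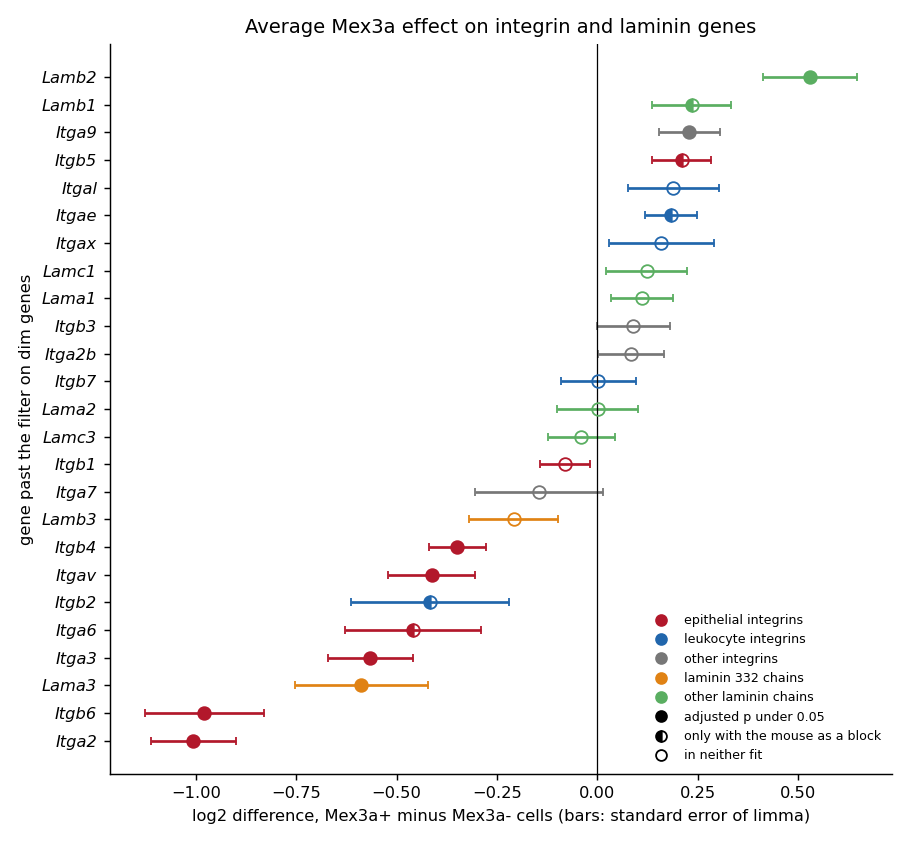
Log2 difference between Mex3a+ and Mex3a- cells (6 arrays against 6) for the 25 genes past the filter, with bars for the standard error of limma and colours for the role of the gene. Filled points passed the test, half-filled points passed it only with the mouse as a block, and open points passed in neither fit. The values run from -1.01 for Itga2 to 0.53 for Lamb2, and the epithelial integrin genes lie mostly at the low end.

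Itga2 encodes the alpha chain of the collagen receptor alpha2beta1. Its log2 signal was 5.80, 5.83 and 5.41 in Mex3a+ Lgr5+ cells of MKL347, MKL358 and MKL367, 5.95, 6.19 and 5.69 in Mex3a+ Lgr5- cells, 6.76, 6.73 and 6.56 in Mex3a- Lgr5+ cells, and 6.83, 7.07 and 6.94 in Mex3a- Lgr5- cells. All 6 Mex3a+ arrays lay below all 6 Mex3a- arrays. Itga2 fell 2.01-fold in Mex3a+ cells (log2 difference -1.01, SE 0.11, limma adjusted p = 9.55e-05), by 0.92, 0.89 and 1.20 on the log2 scale in the 3 mice. The call held without any 1 mouse or array.

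Itgb6 encodes the beta chain of alphavbeta6, an epithelial receptor for fibronectin and latent TGF-beta. It measured 7.02, 7.07 and 6.33 in Mex3a+ Lgr5+ cells of the mice in the same order, 7.20, 7.18 and 6.80 in Mex3a+ Lgr5- cells, 7.97, 7.79 and 7.50 in Mex3a- Lgr5+ cells, and 8.26, 7.82 and 8.14 in Mex3a- Lgr5- cells. Again no Mex3a+ array reached a Mex3a- array, and MKL367 held the lowest array of both Mex3a+ populations. Itgb6 fell 1.97-fold (log2 difference -0.98, SE 0.15, limma adjusted p = 0.000697), and its other probe set gave -0.97. This call too held without any 1 mouse or array. Its partner chain gene Itgav measured 7.75, 7.55 and 7.45 in Mex3a+ Lgr5+ cells, 7.62, 7.88 and 7.24 in Mex3a+ Lgr5- cells, 7.87, 7.87 and 7.63 in Mex3a- Lgr5+ cells, and 8.27, 8.25 and 8.07 in Mex3a- Lgr5- cells. The Mex3a- Lgr5- arrays stood above all others, and the Mex3a- Lgr5+ arrays overlapped with the Mex3a+ arrays. Itgav fell 1.33-fold (log2 difference -0.41, SE 0.11, limma adjusted p = 0.0154). Its adjusted p was 0.133 without MKL347 and 0.0588 without MKL367. With the mean of its probe sets the difference was -0.20 (adjusted p = 0.0481). Its probe sets disagreed: of the 3 others past the filter, 1 was lower (-0.63), and those at 0.18 and -0.19 did not pass.

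Itga3 encodes the alpha chain of the laminin receptor alpha3beta1. It measured 7.94, 8.20 and 7.81 in Mex3a+ Lgr5+ cells, 8.15, 8.24 and 7.94 in Mex3a+ Lgr5- cells, 8.55, 8.68 and 8.26 in Mex3a- Lgr5+ cells, and 8.69, 8.95 and 8.55 in Mex3a- Lgr5- cells. The highest Mex3a+ value (8.24) lay just under the lowest Mex3a- value (8.26). Itga3 fell 1.48-fold (log2 difference -0.57, SE 0.11, limma adjusted p = 0.00238), with an adjusted p of 0.0771 without MKL347. Of its other 2 probe sets, the one at -0.63 passed and the one at -0.22 did not.

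The promoters of these genes show whether members that moved together share simple sequence elements upstream. RefSeq start sites (GRCm38.p6) were available for 20 of the 31 genes, as 23 windows of the 250 bases before a start. They are printed 5' to 3' on the strand of the gene for Itga2 (chr13:114932101-114932350, minus strand), both starts of Itgb6 (chr2:60673694-60673943 and chr2:60722604-60722853, minus strand) and the start of Itga3 with the higher GC content (chr11:95076715-95076964, minus strand), because these are genes whose Mex3a+ and Mex3a- arrays did not overlap. The starts of Itgb6 are numbered by coordinate, so on its minus strand the second lies upstream of the first. Capitals mark matches to the GC box GGGCGG, which factors of the SP and KLF families bind.
Itga2: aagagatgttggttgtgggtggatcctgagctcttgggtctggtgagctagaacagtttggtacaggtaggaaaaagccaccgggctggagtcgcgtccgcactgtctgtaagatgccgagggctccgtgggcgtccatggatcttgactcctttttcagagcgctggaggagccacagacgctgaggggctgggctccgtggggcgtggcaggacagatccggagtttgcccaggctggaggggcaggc
Itgb6, first start: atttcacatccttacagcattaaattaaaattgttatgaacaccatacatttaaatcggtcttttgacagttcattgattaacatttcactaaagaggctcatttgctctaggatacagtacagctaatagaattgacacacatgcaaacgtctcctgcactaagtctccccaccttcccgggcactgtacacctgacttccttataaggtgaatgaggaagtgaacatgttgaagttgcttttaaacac
Itgb6, second start: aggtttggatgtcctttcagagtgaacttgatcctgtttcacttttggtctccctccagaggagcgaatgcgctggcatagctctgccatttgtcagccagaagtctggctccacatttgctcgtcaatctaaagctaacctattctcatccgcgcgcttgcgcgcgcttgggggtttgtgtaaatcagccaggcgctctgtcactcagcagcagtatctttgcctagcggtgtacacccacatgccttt
Itga3: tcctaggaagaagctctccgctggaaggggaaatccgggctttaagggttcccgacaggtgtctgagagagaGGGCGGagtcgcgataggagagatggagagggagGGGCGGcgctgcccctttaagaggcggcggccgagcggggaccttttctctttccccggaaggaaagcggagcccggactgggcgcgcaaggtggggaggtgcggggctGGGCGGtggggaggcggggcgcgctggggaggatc

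The 3 genes did not share an element searched for. The Itga3 window is 67.6% G and C and holds 3 GC boxes, beginning at positions -178, -144 and -35 from the start. The Itga2 window (60.8% G and C) and both Itgb6 windows (38.0% and 52.0%) hold none. Over all members 8 of 23 windows hold a GC box, those of Itga3 (both starts), Itga4, Itga5, Itgam, Itgb1, Itgb5 and Lamb1, beside 32.7% of all 32851 RefSeq windows. Among them Itga3 fell, and Itgb5 and Lamb1 did not pass without the mouse as a block. The AP-1 element TGANTCA was found for Itgax (6.75% of all windows) and the CDX element TTTATNG for Itga8 (9.81%). The TCF/LEF element CTTTGAT (3.21%) and the TATA box TATAAA (12.4%) were found in no member window. Both strands were searched, and the 3 boxes of Itga3 do not overlap each other. A match is a string in the window and was not tied to binding.

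Of the 2 genes for the laminin-332 receptor alpha6beta4, Itgb4 fell in Mex3a+ cells with and without the mouse as a block. Itga6 was lower in all 3 mice (-0.73, -0.35 and -0.29) and passed with the block but not without it. Itgb4 measured 9.37, 9.62 and 9.47 in Mex3a+ Lgr5+ cells of MKL347, MKL358 and MKL367, 9.39, 9.55 and 9.24 in Mex3a+ Lgr5- cells, 9.73, 9.80 and 9.65 in Mex3a- Lgr5+ cells, and 9.80, 9.98 and 9.77 in Mex3a- Lgr5- cells. The Mex3a+ and Mex3a- arrays did not overlap, though the gap was small (9.62 against 9.65). Itgb4 fell 1.27-fold (log2 difference -0.35, SE 0.07, limma adjusted p = 0.00371, and 0.0900 without MKL347). Itga6, which also pairs with beta1, measured 8.73, 9.43 and 9.09 in Mex3a+ Lgr5+ cells, 8.88, 9.57 and 8.83 in Mex3a+ Lgr5- cells, 9.62, 9.98 and 9.30 in Mex3a- Lgr5+ cells, and 9.46, 9.72 and 9.21 in Mex3a- Lgr5- cells. Every population was highest in MKL358, and the Mex3a+ arrays of that mouse overlapped with the Mex3a- arrays of the others. Across all arrays the difference was -0.46 (SE 0.17, limma adjusted p = 0.0662), and with the mouse as a block Itga6 fell (limma adjusted p = 0.000563). It also fell after median centring (0.0494), with array weights (0.0299) and with the mean of its probe sets (-0.40, 0.0122). The less bright probe set of Itga6 fell without the block (-0.35, SE 0.06).

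Itgb1, the common partner of alpha2, alpha3 and alpha6, did not pass. It lay between 9.48 and 9.78 on all 12 arrays, with a difference of -0.08 (SE 0.06, limma adjusted p = 0.367) that was 0.02 after a further quantile normalization. Its other 2 probe sets past the filter gave -0.13 and -0.04. Itgb5, whose product pairs with alphav and binds vitronectin, was the epithelial integrin gene with the opposite sign. It measured 7.01, 6.72 and 6.91 in Mex3a+ Lgr5+ cells, 6.88, 6.96 and 6.84 in Mex3a+ Lgr5- cells, 6.72, 6.53 and 6.52 in Mex3a- Lgr5+ cells, and 6.82, 6.72 and 6.75 in Mex3a- Lgr5- cells. The Mex3a+ arrays were higher on average and overlapped with the Mex3a- arrays. The difference was 0.21 (SE 0.07, limma adjusted p = 0.0507), and Itgb5 rose with the mouse as a block (limma adjusted p = 0.0206). It also rose in 5 other settings that keep every array (0.0193 to 0.0420), quantile normalization among them, and stood at 0.0990 after median centring. The call with the block was lost without MKL347 or MKL367 and without 4 of the 12 single arrays (limma adjusted p 0.0562 to 0.149).

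**Figure D2:**
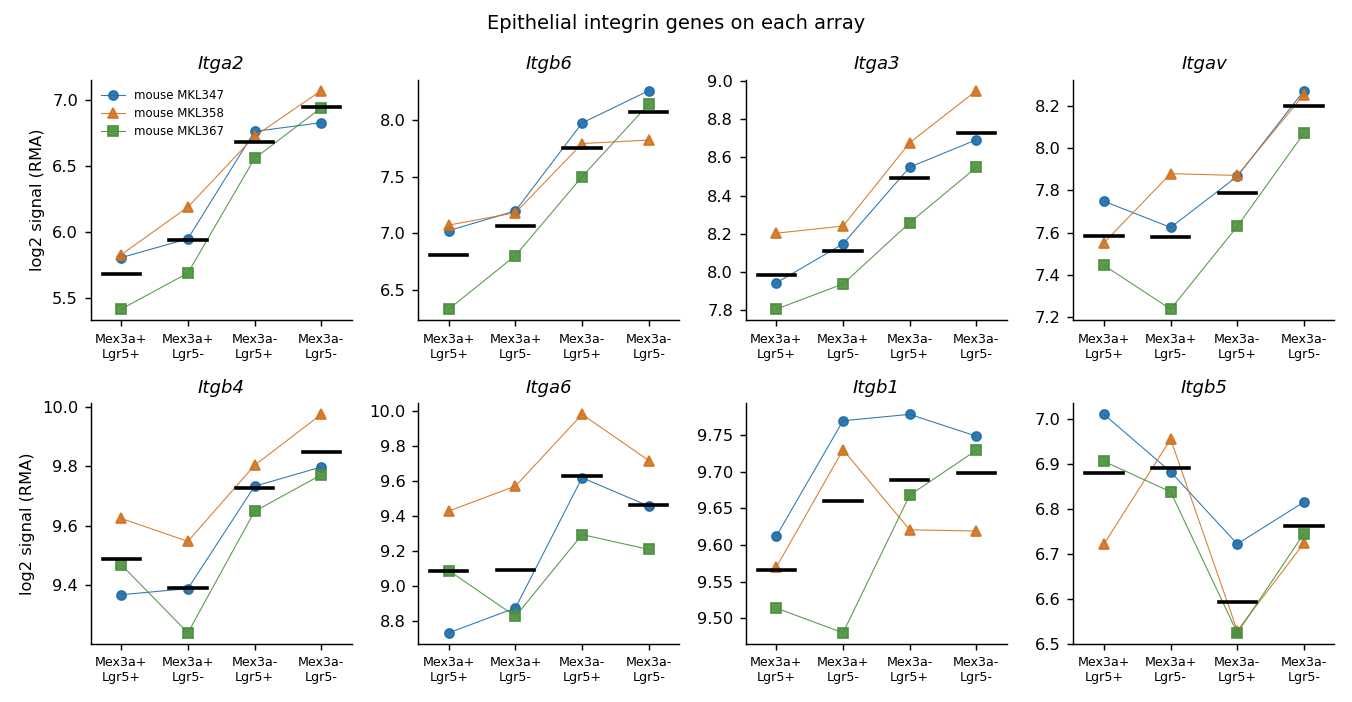
Log2 signal of the 8 epithelial integrin genes on each array, by sorted population, with a symbol and thin line per mouse and a black bar for the mean of 3 mice. Itga2, Itgb6, Itga3 and Itgb4 are lower on all 6 Mex3a+ arrays than on any Mex3a- array, Itgb1 stays between 9.48 and 9.78, and Itgb5 is higher on average in Mex3a+ cells. The vertical scale differs between genes.

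As a group, 5 of the 8 epithelial integrin genes fell and 0 rose, with a median difference of -0.44, beside 17.3% lower and 9.91% higher of all genes. With the block 6 fell and 1 rose, beside 25.3% and 15.9%. Their mean deviation from the gene averages lay between -0.41 and 0.01 on the Mex3a+ arrays and between -0.02 and 0.36 on the Mex3a- arrays. Of 11 general epithelial markers 9 fell in Mex3a+ cells and 0 rose, with a median of -0.37, among them Vil1 (-1.06), Cdx2 (-1.11), Krt19 (-0.59) and Epcam (-0.16). Elf3 (-0.13) and Krt18 (0.11) did not pass, and with the block Krt18 rose. Their mean deviation was -0.47 to -0.09 on the Mex3a+ arrays and 0.12 to 0.45 on the Mex3a- arrays, and their part in the integrin differences was not tested. In such sorted pools, fewer cells of a type and less RNA per cell cannot be told apart.

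Of the 2 laminin-332 chain genes measured, Lama3 fell in Mex3a+ cells and Lamb3 did not pass. Lama3 encodes the alpha3 chain, the end of the trimer that integrins bind. It measured 8.68, 8.78 and 8.63 in Mex3a+ Lgr5+ cells of MKL347, MKL358 and MKL367, 8.45, 8.84 and 8.34 in Mex3a+ Lgr5- cells, 9.51, 9.22 and 8.49 in Mex3a- Lgr5+ cells, and 9.36, 9.64 and 9.03 in Mex3a- Lgr5- cells. The Mex3a- Lgr5+ array of MKL367 (8.49) lay among the Mex3a+ arrays and the other 5 Mex3a- arrays above them. Lama3 fell 1.50-fold (log2 difference -0.59, SE 0.17, limma adjusted p = 0.0212), by 0.87, 0.62 and 0.27 in the 3 mice. The adjusted p was 0.235 without MKL347, 0.0683 without MKL358, 0.0557 without the Mex3a+ Lgr5- array of MKL367, 0.0505 without the Mex3a- Lgr5+ array of MKL358 and 0.0568 after a further quantile normalization. With the mouse as a block it was 0.000795 and held without any 1 mouse or array. A second, dimmer probe set, past the filter level on 4 arrays, gave 0.07 and did not pass, and with the mean of both the difference was -0.26 (adjusted p = 0.0488).

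Lamb3 encodes the beta3 chain of the same trimer. It measured 9.46, 9.51 and 9.56 in Mex3a+ Lgr5+ cells, 9.30, 9.63 and 9.31 in Mex3a+ Lgr5- cells, 9.81, 9.73 and 9.32 in Mex3a- Lgr5+ cells, and 9.72, 10.01 and 9.44 in Mex3a- Lgr5- cells. The populations overlapped, and MKL367 differed from the other mice in sign (0.06 against -0.39 and -0.29). The difference was -0.21 (SE 0.11, limma adjusted p = 0.192, and 0.0512 with the mouse as a block).

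Among the other laminin chains Lamb2 went the opposite way. It encodes the beta2 chain, which takes the place of beta1 in some basement membranes. Its log2 signal was 6.80, 6.87 and 7.24 in Mex3a+ Lgr5+ cells, 6.60, 6.79 and 7.14 in Mex3a+ Lgr5- cells, 6.48, 6.57 and 6.65 in Mex3a- Lgr5+ cells, and 5.93, 6.30 and 6.33 in Mex3a- Lgr5- cells. The Mex3a- Lgr5- arrays were the lowest, and a single pair overlapped, the Mex3a+ Lgr5- array of MKL347 (6.60) and the Mex3a- Lgr5+ array of MKL367 (6.65). Lamb2 rose 1.44-fold in Mex3a+ cells (log2 difference 0.53, SE 0.12, limma adjusted p = 0.00580), by 0.49, 0.40 and 0.70 in the 3 mice, and the call held without any 1 mouse or array. Its promoter, the 250 bases before the RefSeq start on the plus strand (chr9:108479612-108479861, GRCm38.p6), is printed beside those of the genes that fell.
Lamb2: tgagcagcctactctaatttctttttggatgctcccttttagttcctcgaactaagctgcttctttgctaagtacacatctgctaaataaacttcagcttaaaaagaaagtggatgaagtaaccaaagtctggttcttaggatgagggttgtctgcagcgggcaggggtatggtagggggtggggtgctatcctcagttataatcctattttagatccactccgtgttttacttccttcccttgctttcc

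That window is 43.6% G and C and holds none of the elements searched for. Lamb1, for the beta1 chain, measured 5.19, 4.89 and 4.59 in Mex3a+ Lgr5+ cells, 5.04, 4.93 and 4.69 in Mex3a+ Lgr5- cells, 4.65, 4.56 and 4.69 in Mex3a- Lgr5+ cells, and 4.62, 4.74 and 4.65 in Mex3a- Lgr5- cells. The high arrays were the Mex3a+ arrays of MKL347 and MKL358, and MKL367 showed no rise. The difference was 0.23 (SE 0.10, limma adjusted p = 0.0989), and Lamb1 rose with the mouse as a block (limma adjusted p = 0.0433). That call was lost without MKL347 or MKL358 and without 7 of the 12 single arrays (limma adjusted p 0.0717 to 0.415). Lama1, Lama2, Lamc1 and Lamc3 passed in neither fit, with differences between -0.04 and 0.12.

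**Figure D3:**
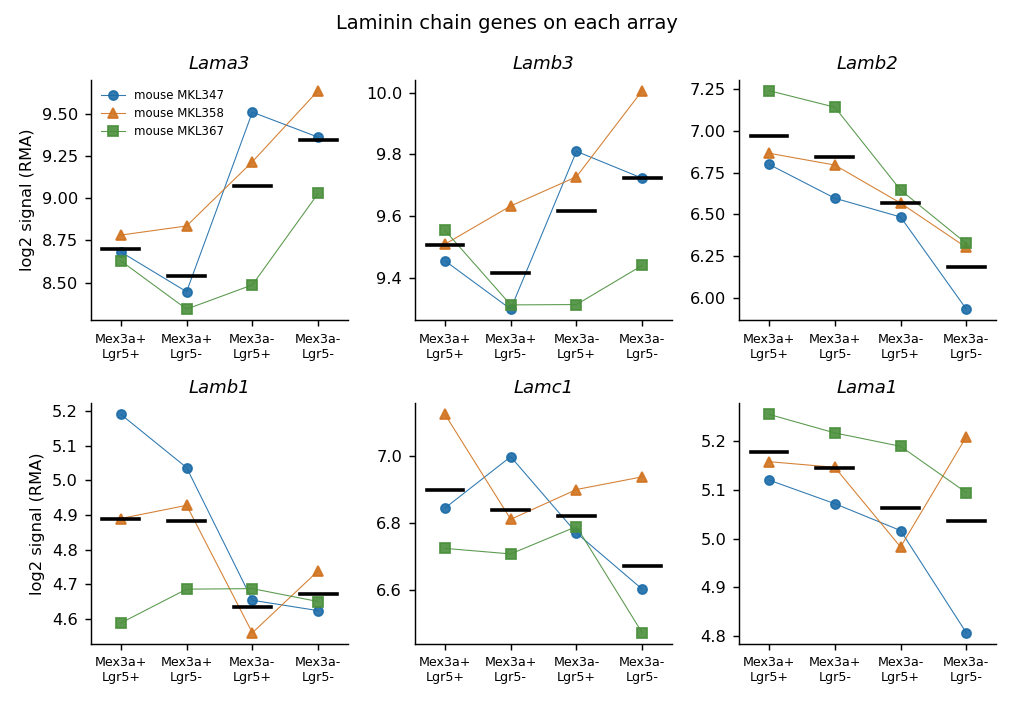
Log2 signal of laminin chain genes on each array, by sorted population, with a symbol and thin line per mouse and a black bar for the mean of 3 mice. Lama3 is lower on average in Mex3a+ cells and Lamb2 higher, with the lowest Lamb2 signals (5.93 to 6.33) in Mex3a- Lgr5- cells. The vertical scale differs between genes.

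Stromal cells also make laminins, so their markers were set beside these genes. Of 8 fibroblast and smooth muscle markers past the filter 0 passed the Mex3a test, beside 27.2% of all genes. With the block 1 was higher, Acta2, and 0 lower, beside 15.9% and 25.3%. The mean deviation of the 12 measured markers of this list lay between -0.16 and 0.05 on the Mex3a+ arrays. On the Mex3a- arrays it lay between -0.18 and 0.09, except for 0.79 on the Mex3a- Lgr5+ array of MKL367. There Col3a1 reached 9.34, beside 4.70 to 6.86 on the other arrays. On that array Col1a1 was 8.70, beside 6.14 to 6.74 elsewhere, and Dcn 7.25, beside 4.60 to 4.88. Thy1 was 5.23 there, beside 4.75 to 5.01 elsewhere. Acta2, Pdgfrb, Des and Myh11 stayed there within their range on the other arrays. Pdgfra, Lum, Col1a2 and Dpt stayed under the filter level on every array. Without that array the Mex3a difference of Lama3 was -0.73 and that of Lamb2 0.55. Of 8 endothelial markers past the filter 1 fell and 0 rose, beside 17.3% lower and 9.91% higher of all genes. With the block 1 fell and 1 rose, beside 25.3% and 15.9%. The part of the stromal and endothelial markers in the laminin differences was not tested.

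Leukocyte integrins were measured on the same arrays as a contrast to the epithelial ones. None of the 5 past the filter passed the Mex3a test without the block. Itgb2, the beta2 chain of all CD11/CD18 integrins, varied most. It measured 5.65, 5.73 and 5.63 in Mex3a+ Lgr5+ cells of MKL347, MKL358 and MKL367, 5.96, 6.39 and 6.02 in Mex3a+ Lgr5- cells, 5.54, 6.45 and 6.47 in Mex3a- Lgr5+ cells, and 6.06, 7.08 and 6.28 in Mex3a- Lgr5- cells. The Mex3a- Lgr5- array of MKL358 stood highest, and the Mex3a+ Lgr5+ arrays were low in all 3 mice. The difference was -0.42 (SE 0.20, limma adjusted p = 0.141), being 0.00 in MKL347, -0.70 in MKL358 and -0.55 in MKL367. With the mouse as a block Itgb2 fell (limma adjusted p = 0.0225), and that call was lost without MKL358 or MKL367 and without 5 of the 12 single arrays (limma adjusted p 0.0539 to 0.181).

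Some leukocyte markers were high on the same arrays. The neutrophil markers (8 measured genes) deviated by 0.94 and 1.36 on the Mex3a- Lgr5+ and Mex3a- Lgr5- arrays of MKL358 and by -0.63 to 0.34 on the other 10 arrays. S100a8 was 7.50 and 8.29 on those 2 arrays. The pan-leukocyte markers (10 genes, 7 of them past the filter) deviated by 0.44 on the Mex3a- Lgr5- array of MKL358 and by -0.21 to 0.16 elsewhere. Ptprc and Was stayed under the filter level throughout. The B and plasma cell markers (5 genes) deviated by 0.85 on that array and by -0.18 to 0.08 elsewhere. Jchain was 7.09 there and 3.16 to 3.44 elsewhere, and Ms4a1 and Pou2af1 stayed under the filter level throughout. In the Mex3a comparison 2 of 7 pan-leukocyte, 3 of 10 myeloid and 1 of 7 neutrophil markers past the filter fell and 0 rose, beside 17.3% of all genes lower. With the block 3, 3 and 4 fell, beside 25.3%. Of 2 B and plasma cell markers past the filter 0 passed in either fit. Their part in the Itgb2 difference was not tested, and without MKL358 the Itgb2 difference was -0.27.

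**Figure D4:**
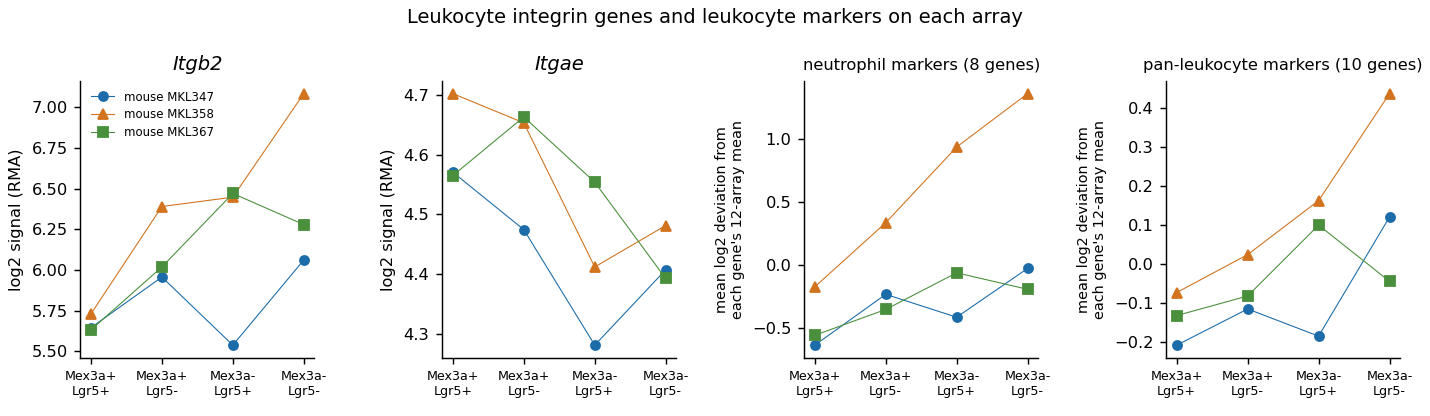
Log2 signal of the leukocyte integrin genes Itgb2 and Itgae (left panels) and mean log2 deviation of the neutrophil and pan-leukocyte marker lists from each gene's 12-array mean (right panels), by sorted population and mouse. Itgb2 and both marker lists are highest on the Mex3a- Lgr5- array of MKL358 (7.08, 1.36 and 0.44), while Itgae is higher on average in Mex3a+ cells.

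Itgae, the alpha chain that lets intraepithelial lymphocytes bind E-cadherin, lay close to the filter level and had the opposite sign. It measured 4.57, 4.70 and 4.57 in Mex3a+ Lgr5+ cells, 4.47, 4.65 and 4.66 in Mex3a+ Lgr5- cells, 4.28, 4.41 and 4.55 in Mex3a- Lgr5+ cells, and 4.41, 4.48 and 4.39 in Mex3a- Lgr5- cells. Within each mouse the Mex3a+ values were on average the higher ones. The difference was 0.18 (SE 0.06, limma adjusted p = 0.0537), and Itgae rose with array weights (limma adjusted p = 0.0308), with the mean of all probe sets (0.0410) and with the mouse as a block (0.0283), a call that was lost without any 1 of the 3 mice and without 7 of the 12 single arrays (limma adjusted p 0.0534 to 0.139). Of 7 T cell and natural killer markers past the filter 0 passed in either fit, with a median of 0.06. Of the 13 such markers measured, Cd3e, Cd8b1, Gzma, Klrd1, Nkg7 and Xcl1 stayed under the filter level on every array. Cd3d, Cd2, Cd8a, Cd4 and Cd160 exceeded it on all 12 arrays, and Cd3g and Gzmb on 10.

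The remaining leukocyte chains passed in neither fit. Itgal, the alpha chain of LFA-1, measured 5.40, 5.17 and 5.26 in Mex3a+ Lgr5+ cells, 5.17, 5.35 and 5.04 in Mex3a+ Lgr5- cells, 4.88, 5.01 and 5.19 in Mex3a- Lgr5+ cells, and 4.68, 5.37 and 5.12 in Mex3a- Lgr5- cells (difference 0.19, SE 0.11, limma adjusted p = 0.244). Itgax, the alpha chain found on dendritic cells and macrophages, measured 5.60, 5.83 and 5.73 in Mex3a+ Lgr5+ cells, 5.67, 6.04 and 5.73 in Mex3a+ Lgr5- cells, 5.41, 5.54 and 5.89 in Mex3a- Lgr5+ cells, and 5.16, 5.85 and 5.77 in Mex3a- Lgr5- cells (difference 0.16, SE 0.13). Itgb7, the partner of alphaE and alpha4, measured 5.68, 6.05 and 5.89, then 5.97, 5.86 and 5.99, then 5.86, 5.91 and 5.88, and last 5.83, 6.21 and 5.73 in the same order of populations (difference 0.00, SE 0.09). The populations of all 3 genes overlapped.

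Of the other integrin genes Itga9 passed. It encodes the alpha9 chain, a receptor for tenascin and other matrix proteins, and measured 5.71, 5.67 and 5.74 in Mex3a+ Lgr5+ cells, 5.63, 5.67 and 5.45 in Mex3a+ Lgr5- cells, 5.44, 5.28 and 5.51 in Mex3a- Lgr5+ cells, and 5.23, 5.51 and 5.54 in Mex3a- Lgr5- cells. The Mex3a+ Lgr5+ arrays stood above all Mex3a- arrays, and the Mex3a+ Lgr5- array of MKL367 (5.45) fell among them. Itga9 rose 1.17-fold (log2 difference 0.23, SE 0.08, limma adjusted p = 0.0446). The call was lost without any 1 of the 3 mice (limma adjusted p 0.0974 to 0.292), without 8 of the 12 single arrays (0.0578 to 0.103), without the filter on dim genes (0.0611), after a further quantile normalization (0.0731) and after median centring (0.0724). A second probe set gave 0.42 and passed. Itga2b, Itga7 and Itgb3, chains known from platelets and muscle, passed in neither fit (-0.14 to 0.09).

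The same arrays were then compared within each Lgr5 state (3 against 3), so these values are parts of the average and no independent check of it. Each of the 13 genes called in either fit had a Mex3a difference of the same sign in both states. In Lgr5+ cells 2 of 25 genes passed, Itga2 (-1.003, SE 0.15, limma adjusted p = 0.00388) and Itgb6 (-0.95, SE 0.21, limma adjusted p = 0.0219), beside 8.01% of all genes. In Lgr5- cells 7 passed, beside 16.9% of all genes. Itga2 (-1.01), Itgb6 (-1.01), Lama3 (-0.80), Itga3 (-0.62), Itgav (-0.62) and Itgb4 (-0.46) fell, and Lamb2 (0.66) rose (limma adjusted p 0.00178 to 0.0370). With the mouse as a block 7 passed in Lgr5+ cells, where Itga3, Itga6 and Itgb4 also fell and Lamb2 and Itgb5 rose, beside 22% of all genes. With the block 8 passed in Lgr5- cells, where Itga6 also fell, beside 31.9% of all genes.

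Without the block, calls within the Lgr5 states were lost when a mouse was left out, which also leaves fewer arrays. Without MKL347 all 9 calls were lost (limma adjusted p 0.0586 to 0.262). For each of these 9 the difference had the same sign in all 3 mice. Leaving out MKL367 left 1 gene in Lgr5+ cells and 3 in Lgr5- cells. Leaving out its Mex3a+ Lgr5- array alone left 2 in Lgr5- cells. Without the Mex3a- Lgr5- array of MKL347, 4 passed there. The share of all genes passing the average Mex3a comparison dropped too, from 27.2% to 8.21% with MKL347 absent and 12.3% with MKL367 absent. The fits that lacked a single array gave 20.8% and 22.4%, in the order named. Shares of all genes within the Lgr5 states are not given for these fits. The losses there thus cannot be told from a general drop in calls. Itgb6 in Lgr5+ cells also missed the threshold without the Mex3a+ Lgr5+ array of MKL367 or the Mex3a- Lgr5+ array of MKL347 or MKL358 (limma adjusted p 0.0767 to 0.0893). In Lgr5- cells Lama3 and Lamb2 missed it without MKL358 (limma adjusted p 0.0901 and 0.0610). There a further quantile normalization ended the calls of Itga3, Itgav, Itgb4 and Lama3 (0.0514 to 0.0913), the mean of all probe sets those of Itga3 (0.0540), Itgav (-0.27, 0.0739) and Lama3 (-0.38, 0.0615), and array weights that of Lama3 (0.0716). With the block these 9 calls held without any 1 mouse or array. The calls made only with the block were less stable: in Lgr5+ cells Itga6 missed the threshold without MKL347 (limma adjusted p = 0.0525), and Itgb4, Lamb2 and Itgb5 without MKL347 or MKL367 and without 3, 3 and 6 single arrays (up to 0.210, 0.169 and 0.291). In Lgr5- cells Itga6 missed it without MKL347 or MKL367 and without 3 single arrays (up to 0.130).

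**Figure D5:**
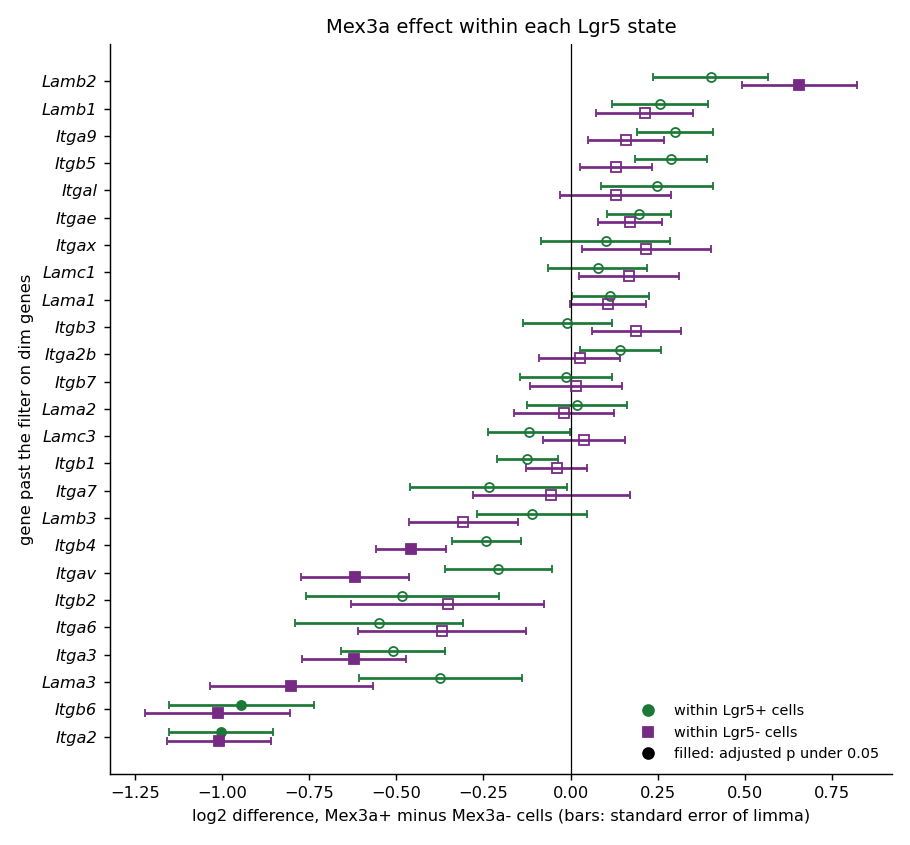
Log2 difference between Mex3a+ and Mex3a- cells within Lgr5+ cells (green circles) and within Lgr5- cells (purple squares), 3 arrays against 3, with bars for the standard error of limma and filled points for an adjusted p under 0.05 without the block. Itga2 lies at -1.003 and -1.01 in the 2 states. The bars of Itgav (-0.21 and -0.62) and those of Itgb4 (-0.24 and -0.46) do not touch, although the test between the states passed for neither gene.

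The interaction tests whether the Mex3a difference depends on the Lgr5 state. Lama3 (0.43, SE 0.33) and Itgav (0.41, SE 0.22) had the largest values, being less reduced in Lgr5+ than in Lgr5- cells, and Lamb2 the lowest (-0.25, SE 0.23). No integrin or laminin gene passed in limma, and none reached an unadjusted p under 0.05, beside 2.85% of all genes at that level. The lowest adjusted p was 0.999971 without the block and 0.453 with it, and 0 of all 12595 genes passed in either fit.

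The Lgr5 comparison, 6 Lgr5+ arrays against 6 Lgr5- arrays, gave 0 calls among the 25 genes, beside 0.0397% of all genes, and 0 with the mouse as a block, beside 1.8%. In limma 1 gene, Itga2, had an unadjusted p under 0.05 (4.0% of 25, beside 6.22% of all genes). Its difference was -0.26 (SE 0.11, limma adjusted p = 0.728), with the same sign in all 3 mice. The values ran from -0.39 for Itgb2 (SE 0.20), which was lower in Lgr5+ cells of every mouse on average, to 0.25 for Lamb2 (SE 0.12). Itgb6 stood at -0.29 (SE 0.15) and Itga3 at -0.18 (SE 0.11). The lowest adjusted p with the block was 0.0970, for Itga3. Within Mex3a+ cells (0% of all genes called) and within Mex3a- cells (0.0318%) 0 of the 25 genes passed, nor did any with the block (0.0715% and 1.62%). Within Mex3a- cells Lamb2 was higher in Lgr5+ than in Lgr5- cells of each mouse (0.38, SE 0.17, limma adjusted p = 0.769), and within Mex3a+ cells its difference was 0.12.

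Genes that work around integrins and laminins were taken from 4 lists. Of their 55 genes past the filter 17 passed the Mex3a test (30.9%), beside 27.2% of all genes, and 27 with the block (49.1%), beside 41.2%, so the lists as a whole lie near all genes. Among 9 basement membrane partners past the filter 3 rose and 1 fell in Mex3a+ cells, with a median of 0.04, beside 9.91% higher and 17.3% lower of all genes. Agrn, a heparan sulfate proteoglycan that binds laminins, rose from a mean of 8.73 in Mex3a- to 9.37 in Mex3a+ cells (difference 0.63, SE 0.11, limma adjusted p = 0.00139), and the call held without any 1 mouse or array. Frem2 (0.31) and Hspg2 (0.30), which encodes perlecan, also rose, and Col4a2, a collagen IV chain, fell (-0.77, SE 0.25, limma adjusted p = 0.0364). The calls of Frem2 and Hspg2 were lost without MKL347 or MKL367 (up to 0.182), Hspg2 also without 3 single arrays (up to 0.0615). That of Col4a2 was lost without MKL367 (0.342) and without 8 single arrays (up to 0.0868).

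Of 10 hemidesmosome and laminin receptor genes past the filter 3 fell and 0 rose, with a median of -0.19, close to the 27.2% of all genes called. With the block 5 fell and 2 rose, beside 41.2%. Plec, the plakin that links beta4 integrin to keratin filaments, fell from 9.52 to 8.80 (difference -0.72, SE 0.15, limma adjusted p = 0.00457, and 0.107 without MKL347). Sdc4 (-0.38) and Dag1 (-0.31), which encode syndecan-4 and dystroglycan, fell as well. Both calls were lost without MKL347 or MKL367 (up to 0.299) and without most single arrays (up to 0.108), and after a further quantile normalization (0.211 for Dag1 and 0.142 for Sdc4), but held with the block. Dag1 was not called without the filter either (0.0526), nor Sdc4 without a trend (0.0502) or with the mean of its probe sets (0.140). Krt14, a basal keratin, stood at -1.15 (SE 0.40, limma adjusted p = 0.0502) and Dst, another plakin, at -0.42. Both fell with the block (0.000555 and 0.00312), Krt14 also in 4 other settings (0.0129 to 0.0450), while Col17a1 (0.46) and Cd151 (0.13) rose with it (0.00233 and 0.0414). Col17a1 also rose with array weights (0.0253) and Cd151 after quantile normalization (0.23, 0.00528). Of these, Dst was not called without MKL367 (0.0511), nor Cd151 without MKL347 or MKL358 and 8 single arrays (up to 0.311).

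Inside the cell, 24 genes of the integrin adhesion machinery passed the filter, of which 4 rose and 3 fell, with a median of -0.05, close to the 27.2% of all genes called. With the block 5 rose and 7 fell, beside 41.2%. Fermt2, a kindlin that activates integrins, rose from 4.80 to 5.50 (difference 0.70, SE 0.10, limma adjusted p = 0.000607) and held without any 1 mouse or array. Rsu1, which binds the PINCH adaptor, rose by 0.59 on the log2 scale (SE 0.10, limma adjusted p = 0.00175, and 0.0839 without MKL347), and by 0.39 with the mean of its probe sets. Tns4, a tensin, was lower (-0.39, SE 0.08, limma adjusted p = 0.00484), as was Pxn, the adaptor paxillin (-0.37, SE 0.10, limma adjusted p = 0.0137). Both were not called without MKL347 or MKL367 (up to 0.117 and 0.197), nor Pxn after a further quantile normalization (0.0625). The other 3 calls, named although they lie outside the naming rule, were Ilk (0.41), Tns3 (0.67) and Ptk2b (-0.41), and they too were lost without MKL347 or MKL367 (up to 0.263), Ptk2b also without 6 single arrays.

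The largest called difference in these lists was that of Npnt. It encodes nephronectin, a basement membrane ligand of alpha8beta1, and rose 3.82-fold, from a mean of 5.80 in Mex3a- to 7.73 in Mex3a+ cells (difference 1.93, SE 0.27, limma adjusted p = 0.000432), without overlap between the arrays. The 3 mice gave 2.57, 1.61 and 1.62, and the call held without any 1 mouse or array. With the mean of all its probe sets the rise was 1.10 on the log2 scale (limma adjusted p = 0.000413). Itga8, its receptor chain, stayed under the filter (2.91 to 3.19 on all 12 arrays). Among the 12 other integrin ligands past the filter 2 rose and 1 fell, with a median of 0.07, a share no higher than the 27.2% of all genes. With the block 3 rose and 1 fell, beside 41.2%. Tgfb3, whose latent form binds alphavbeta6, rose (0.42, SE 0.11, limma adjusted p = 0.0127, and 0.181 without MKL347). Cdh1, for E-cadherin, fell (-0.37, SE 0.11, limma adjusted p = 0.0245), a call lost without MKL347 or MKL367 (up to 0.270) and without 4 single arrays (up to 0.0641). Fn1, for fibronectin, stood at 0.48 (SE 0.17, limma adjusted p = 0.0567) and rose with the block (0.00294) and after quantile normalization (0.0181), though with the block not without MKL347 or MKL358 (up to 0.0677). Over the 4 lists the 17 calls became 4 without MKL347 (7.27%, beside 8.21% of all genes), 6 without MKL367 (10.9%, beside 12.3%) and 11 with the Mex3a+ Lgr5- array of MKL367 left out (20.0%, beside 20.8%). In the Lgr5 comparison 0 genes of these lists passed without the block and 2 with it, Hspg2 and Tns4 (limma adjusted p 0.0444 and 0.0118).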

How the data were processed

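The deposited values of the 12 arrays are log2 signals. RMA is the method that the submitters' processing notes name, and its software, version and options are not stated in the labels. Per the labels' protocols, 25 ng of total RNA was amplified with a whole transcriptome kit and 8 µg of cDNA was labelled. Of 45141 probe sets, GEO's platform table gives 28898 a gene symbol of their own, 551 several and 15588 none, and 104 are controls. All 31 member symbols matched RefSeq by Entrez ID, and 15 members had several probe sets, of which the brightest on average over all arrays was used. Genes above the 40th percentile of all values (4.40) on at least 3 arrays were tested. Precision is limited by there being 3 arrays per population.

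The model (limma 3.58.1, R 4.3.3) held 1 mean per population and was fitted to all 12 arrays with empirical Bayes and an intensity trend, 7 contrasts and 2-sided tests, Benjamini-Hochberg adjusted over the 12595 genes of a contrast. Adjusted p-values are limma's, errors are its standard errors, and called means an adjusted p under 0.05. The code was tested on simulated data. The mouse number in the titles means that arrays share an animal. Residuals from the population means correlated across genes at 0.349 to 0.694 for the 18 pairs of arrays from 1 mouse, and at -0.691 to 0.152 for the 48 other pairs. Because each mean comes from the arrays of its own population, residuals cancel within a population. That alone lowers the correlation of pairs from different mice. The fit without the block leaves out that arrays share an animal. The mouse as a block was an alternative, printed where it changed a call.

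The members, lists and tests were chosen with earlier results of these data known. Values on every array are given for members called in an average effect with or without the block, for the measured laminin-332 chains and their receptor, and for leukocyte integrins past the filter. Up to 4 called genes with the smallest p are named per pathway list, and a few called only with the block were added after their values were seen. Motifs were searched in RefSeq windows with Python 3.11.15, and figures were drawn with matplotlib 3.10.9.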

Additional observations from a re-analysis of the deposited data

How the results depend on the processing

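Alternatives were the mouse as a replicate block, dim genes kept or filtered at the 60th percentile, quantile normalization or centring of the deposited values, all probe sets averaged or fitted singly, variance without a trend, weighted arrays, and each mouse or array left out. Fits that joined the block to a left-out mouse or array were added after the data had been seen. The genes passing in the Mex3a comparison numbered 8, and 13 with the block. Higher genes numbered 2, and 5 with the block, 4 with the mean of all probe sets or array weights, and 1 with no filter or median centring. Lower genes numbered 6, and 5 to 8 under these settings. In Lgr5+ cells 2 passed, 7 with the block and 5 with array weights. In Lgr5- cells 7 passed, 3 after quantile normalization and 4 with the mean of all probe sets. The pathway lists held 17 calls, 27 with the block. Leaving out a mouse or array gave 3 to 10 calls in all (8 to 13 with the block), 1 to 3 higher (1 to 5), 2 to 7 lower (7 to 9), 0 to 3 in Lgr5+ cells (4 to 8), 0 to 7 in Lgr5- cells (7 to 9), 4 to 18 in the pathway lists (18 to 29) and 0 in the Lgr5 comparison and interaction, except 1 for Lgr5 within Mex3a- cells with the block and without the Mex3a+ Lgr5- array of MKL358. The share of all genes passing the Mex3a comparison moved too. It was 27.2% as reported, 41.2% with the block, 19.9% with no filter, 28.4% after median centring and 24.8% after quantile normalization. With the mean of all probe sets it was 29%, and with array weights 34.9%. With a mouse or array left out it ran from 8.21% to 27.8% (28.1% to 42.2% with the block). Within the Lgr5 states such shares are given only as reported and with the block. The block changed no call of a member other than those printed with it.

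Differences that changed sign were all of genes near 0, and no difference passed with the other sign: Itgb1 (0.0154 after quantile normalization), Itgb7 (-0.0080 and -0.0314 after quantile normalization and centring), Lama2 (-0.0422 and -0.0330), Cd151 (-0.0067 with the mean of all probe sets), and, with a mouse or array left out, Itgb7 (-0.0641 to 0.0740), Lama2 (-0.0701 to 0.0595) and Lamc3 (-0.0909 to 0.0164). Itga2, Itgb6, Itga3, Itgav, Itgb4 and Lamb2 kept their calls in the Mex3a comparison under all 9 settings that keep every array, although the Itgav difference shrank from -0.41 to -0.20 with the mean of its probe sets. The cause of these changes was not tested. With 3 mice and pools of 500 to 2000 sorted cells, genes that missed the threshold may still differ.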

Other observations

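Itgb2l, Itgb3bp and Itgb1bp2 have symbols that begin like those of integrin genes and lie outside the symbols chosen. In the Mex3a comparison Itgb2l differed by 0.04 (SE 0.10, limma adjusted p = 0.804), Itgb3bp by -0.09 (SE 0.10, limma adjusted p = 0.538) and Itgb1bp2 by 0.14 (SE 0.06, limma adjusted p = 0.127). None of the 3 passed with the mouse as a block, and Itgbl1 lay between 3.40 and 3.72, under the filter.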
